A study of Mus musculus with 12 samples.

Results

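The transcripts described are those of 10 mouse enzymes of ethanol oxidation, which act on ethanol, acetaldehyde or acetate: the cytochrome P450 Cyp2e1, 4 alcohol dehydrogenases (Adh1, Adh4, Adh5 and Adh7), 4 aldehyde dehydrogenases (Aldh2, Aldh1a1, Aldh1a7 and Aldh1b1) and the acetyl-CoA synthetase Acss2. They were picked by gene symbol out of the 56748 genes in the count table. Each symbol matched 1 row, and all 10 passed the filter on low counts that left 14003 genes to test. Polyadenylated RNA of whole liver was sequenced from co-housed, chow-fed mice at 16 weeks of age, in 4 groups of 3 replicate libraries. The labels do not say that replicates came from separate animals, so p-values measure the spread between these libraries, which may be technical. A KO male, WT male, KO female or WT female accordingly stands for 1 library. The groups were male and female mice of the line 129/Sv-Cyp2e1tm1Gonz/J (knockout, KO), which carries a targeted allele of Cyp2e1, and male and female mice of the line 129S1/SvImJ (wild type, WT). The labels give no other allele or agent for any group. KO and WT mice belong to different 129 lines, so the allele and the line background cannot be told apart.

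Ethanol is cleared mainly in hepatocytes. Cytosolic alcohol dehydrogenases, with the microsomal P450 Cyp2e1 and peroxisomal catalase as side routes, turn it into acetaldehyde. Aldehyde dehydrogenases, above all the mitochondrial enzyme Aldh2, turn acetaldehyde into acetate, which acetyl-CoA synthetases link to coenzyme A. Cyp2e1 protein is concentrated in the hepatocytes around the central vein, and it also oxidises acetaminophen, acetone and fatty acids.

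The 4 alcohol dehydrogenase genes lay on the plus strand of chromosome 3 within 237.74 kb (mm39, 137923521 to 138161260), in the order Adh7, Adh1, Adh4 and Adh5, with Adh6a, Adh6b and the pseudogene Adh6-ps1 between Adh1 and Adh4. Aldh1a1 and Aldh1a7 faced each other on chromosome 19 with 49.5 kb between their ends. Cyp2e1 lay on chromosome 7 (140343652 to 140354900, plus strand), Aldh2 on chromosome 5, Aldh1b1 on chromosome 4 and Acss2 on chromosome 2. Coding sequences of GENCODE M21 (GRCm38, from the C57BL/6J strain and not from 129) were compared to see which members could exchange reads. Aldh1a1 and Aldh1a7 were 91.6% identical over 1503 coding bases, with 126 differences and 1 shared run of 100 bases. No pair of the 4 alcohol dehydrogenases passed 69.1% identity or shared a run longer than 23 bases. The stretch of 120 coding bases that ends with the shared run of Aldh1a1 and Aldh1a7 is shown because reads from it can be placed on either gene. Capitals mark the 2 bases that differ.
Aldh1a1: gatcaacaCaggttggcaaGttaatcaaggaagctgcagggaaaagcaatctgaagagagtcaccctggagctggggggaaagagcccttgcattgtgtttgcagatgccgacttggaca
Aldh1a7: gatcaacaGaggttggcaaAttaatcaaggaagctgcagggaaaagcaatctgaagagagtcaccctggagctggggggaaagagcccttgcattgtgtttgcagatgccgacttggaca

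RefSeq promoter entries (GRCm38.p6) were found for 9 of the 10 members. The 250 bases before the start of Cyp2e1 (chr7:140763569-140763818, plus strand), Aldh1a1 (chr19:20601718-20601967, plus strand) and Aldh1a7 (chr19:20727557-20727806, minus strand) are shown, the first for the gene that the knockout targets and the others to compare the neighbouring Aldh1a genes. Capitals mark exact matches, on either strand, to TATAAA (the TATA box core), GTTAAT (part of the palindrome that the hepatocyte factor HNF1 binds) and CCAAT. These letters occurred in 12.4%, 6.4% and 33.8% of 32851 promoter entries of that length. The 3 motifs did not overlap one another in these windows.
Cyp2e1: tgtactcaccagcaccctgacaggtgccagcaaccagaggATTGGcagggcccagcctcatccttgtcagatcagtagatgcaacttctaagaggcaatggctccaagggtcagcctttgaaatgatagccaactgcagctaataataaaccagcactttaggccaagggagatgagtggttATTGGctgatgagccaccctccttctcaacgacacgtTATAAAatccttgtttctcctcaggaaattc
Aldh1a1: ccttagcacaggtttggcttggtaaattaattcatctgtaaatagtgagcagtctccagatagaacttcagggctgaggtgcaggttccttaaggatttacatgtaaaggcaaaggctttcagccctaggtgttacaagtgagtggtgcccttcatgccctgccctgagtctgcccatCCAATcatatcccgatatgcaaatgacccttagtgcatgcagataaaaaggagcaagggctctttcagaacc
Aldh1a7: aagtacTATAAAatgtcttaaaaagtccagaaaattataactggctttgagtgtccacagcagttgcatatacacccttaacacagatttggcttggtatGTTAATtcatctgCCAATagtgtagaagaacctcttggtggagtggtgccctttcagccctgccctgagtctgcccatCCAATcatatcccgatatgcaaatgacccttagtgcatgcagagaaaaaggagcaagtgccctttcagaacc

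In Cyp2e1, TATAAA began 31 bases before the start of the RefSeq entry. The GENCODE M21 transcript of Cyp2e1 starts at 140763739, inside the window shown and before that match. Over the 120 bases next to the start, the Aldh1a1 and Aldh1a7 promoters were 87.5% identical, and both held CCAAT 72 bases before it. Over the whole 250 bases, compared without gaps, identity was 51.6%. A match of letters is a description of the sequence and not of binding.

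Levels are given as CPM, the count of a gene scaled to the library's TMM-adjusted total. Fold changes are on the log2 scale with their standard errors, from 1 edgeR quasi-likelihood model of the 12 libraries. A gene was called at a Benjamini-Hochberg adjusted p under 0.05 over the 14003 genes. Total counts ran from 15167730 to 25082532 per library. All 6 hepatocyte markers (Alb, Apoa1, Ttr, Hnf4a, Tat and Cps1) were present in every group, at a sum of 62869 to 108180 CPM. In whole liver RNA, fewer cells of a type and less RNA per cell cannot be told apart. Libraries differed in how level moved with gene length. The slope, in log2 units per doubling of length, was 0.08 to 0.29 in KO females and -0.23 to -0.14 in WT females, which did not overlap. It was -0.17 to 0.17 in KO males and -0.16 to 0.11 in WT males, which did. Because the female slopes did not overlap, a fit with the slope as a covariate tells genotype from slope poorly in females. A call lost there cannot be assigned to either. Female comparisons without KO replicate 2 called 4 genes and without WT replicate 2 called 5, against 5116 with all libraries.

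Cyp2e1 fell in KO livers of both sexes to a few percent of its wild type level. KO males had 389, 403 and 318 CPM, against 10374, 11480 and 10700 CPM in WT males. KO females had 230, 323 and 277 CPM, against 6213, 6349 and 7076 CPM in WT females. The highest KO library stood far below the lowest WT library in either sex. The KO mean was 3.41% of the WT mean in males (log2 fold change -4.87 ± 0.21, edgeR adjusted p = 4.59e-08) and 4.23% in females (-4.56 ± 0.20, adjusted p = 8.87e-08), which is 29.3-fold and 23.7-fold lower. The KO libraries still held 5176 to 7565 Cyp2e1 counts each, so the remaining level is not a limit of depth. The table has 1 count per gene, and the exons those counts came from were not analysed here. The knockout effect in males minus that in females was -0.31 ± 0.25 (95% interval -0.84 to 0.22, adjusted p = 0.434).

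**Figure D1:**
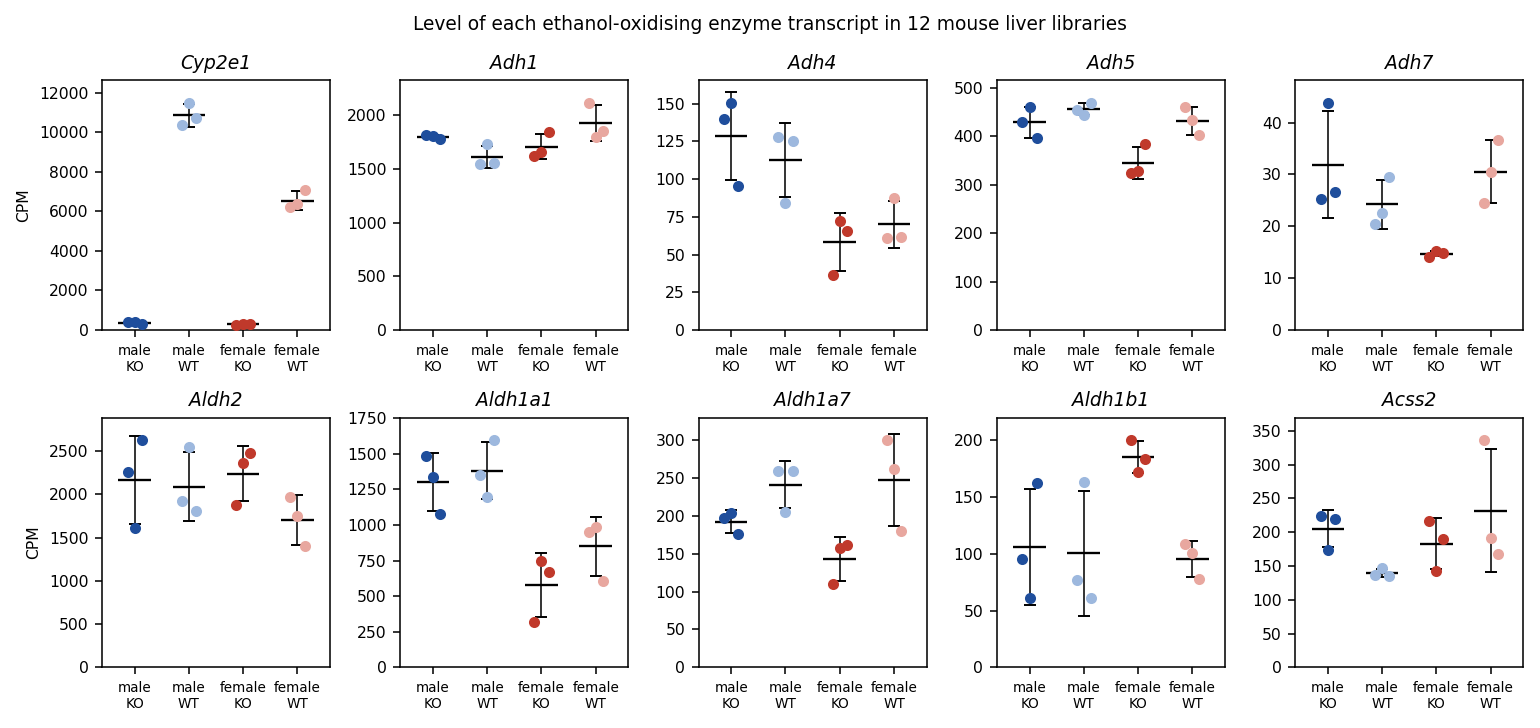
CPM of each of the 10 transcripts (vertical axes, linear and from 0) in 4 groups of 3 libraries, with points for single libraries, bars for the mean and error bars for the SD. Cyp2e1 is far below its WT level in both KO groups, at 230 to 403 CPM, while Adh7 is lowest in KO females, at 14.1 to 15.1 CPM.

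On the length-scaled level (CPM per kb of the deposited gene length), Cyp2e1 stood first among the 10 transcripts in WT livers. It had 171 ± 21.1 CPM per kb in KO males (SD, n = 3, rank 359 of all tested genes) and 5028 ± 263 in WT males (rank 14). It had 128 ± 21.4 CPM per kb in KO females (rank 363) and 3033 ± 215 in WT females (rank 22). Adh1, the class I alcohol dehydrogenase that carries most hepatic ethanol oxidation, came first in KO and second in WT livers, at 805 ± 9.30 CPM per kb in KO males, 721 ± 46.8 in WT males, 764 ± 52.4 in KO females and 861 ± 74.8 in WT females. Aldh2 followed Adh1 in each of the 4 groups, at group means of 333 to 437 CPM per kb. Neither Adh1 nor Aldh2 overlapped the next in line in any group.

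The middle of the order was less distinct. In KO females Cyp2e1, Aldh1a1, Aldh1b1, Aldh1a7 and Adh5 each overlapped a neighbour in that order, from 128 ± 21.4 to 63.9 ± 6.05 CPM per kb. In KO males Aldh1a1 (264 ± 41.7) lay above Cyp2e1 without overlap, and Aldh1a7, Adh4 and Adh5 overlapped at 93.2 to 79.3 CPM per kb. Acss2 (13.7 to 22.8 CPM per kb) came next to last and Adh7 (3.88 to 8.42) last in every group without overlap with a neighbour. The place of Acss2 depends on its deposited gene length, the longest of the 10 (10163 bases). In CPM its group means (139 to 232) lay above those of Adh4 (58.0 to 129). Cyp2e1 made up 8.59% ± 1.17 of the summed length-scaled level of the 10 transcripts in KO males and 74.2% ± 0.173 in WT males, and 7.44% ± 0.831 in KO females and 64.2% ± 4.18 in WT females.

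**Figure D2:**
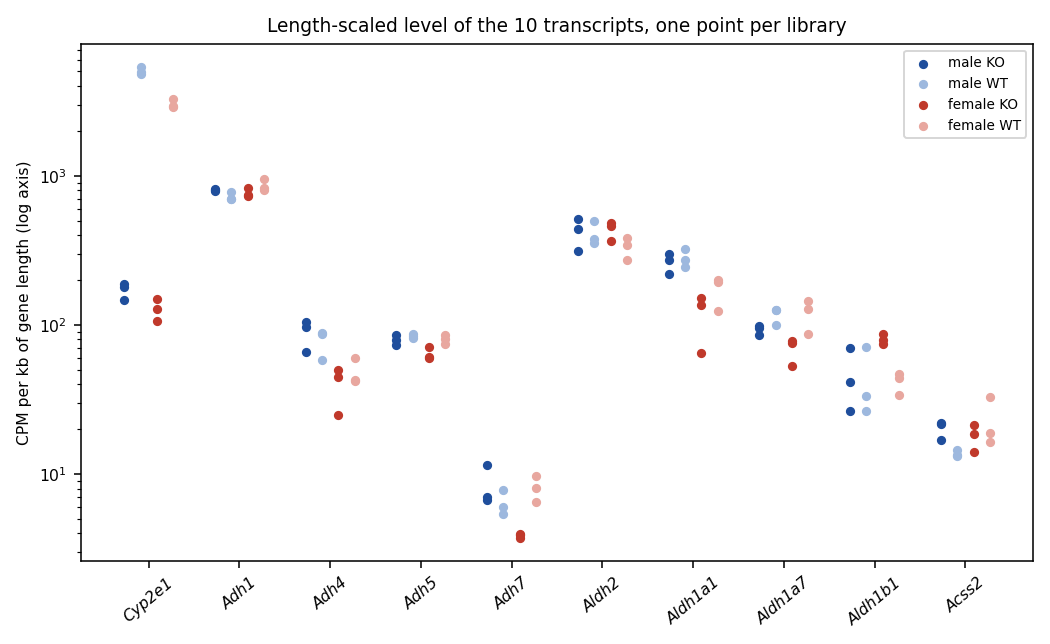
CPM per kb of gene length (log axis) for each transcript, 1 point per library, coloured by group. Cyp2e1 averages 171 and 128 in KO males and KO females, against 5028 and 3033 in WT males and WT females, and Adh7 lies lowest in every group.

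Summed over the 9 other members, the length-scaled level was 1827 ± 81.7 CPM per kb in KO males and 1751 ± 82.4 in WT males, and 1593 ± 169 in KO females and 1687 ± 196 in WT females (SD, n = 3). The ranges of KO and WT overlapped in both sexes. The 4 alcohol dehydrogenases summed to 941 to 1008 CPM per kb in KO males and 871 to 922 in WT males, without overlap, and to 816 to 943 in KO females and 955 to 1080 in WT females, also without overlap and in the other direction. Of all tested genes, 9.62% did not overlap between KO and WT in males and 54.8% in females. Adh1 made up most of the sum, at a mean of 764 of 871 CPM per kb in KO females and 861 of 998 in WT females. Adh1 was called in neither sex, and its effect in males minus that in females was 0.33 ± 0.21 (edgeR adjusted p = 0.333). The summed level of the 4 aldehyde dehydrogenases overlapped between KO and WT in both sexes.

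**Figure D3:**
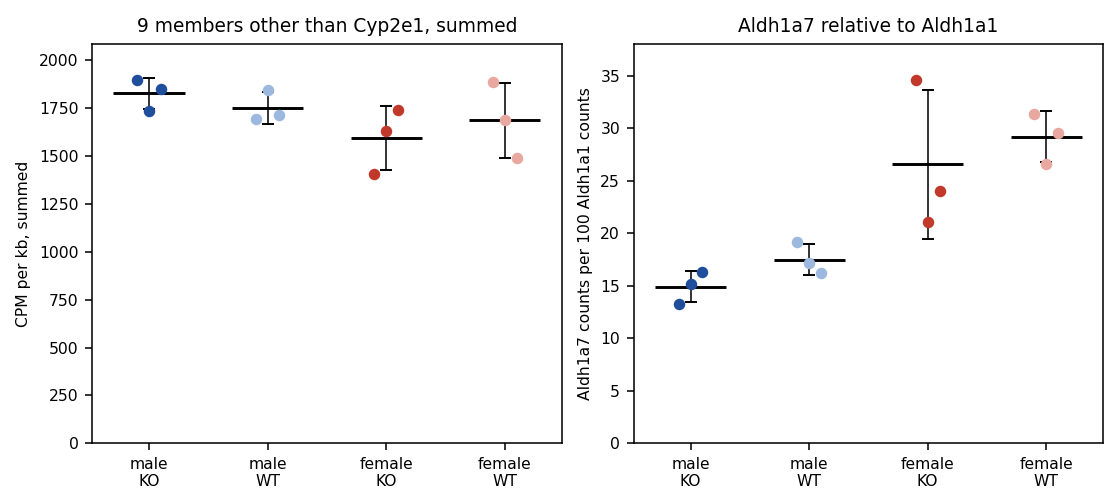
Left, the summed CPM per kb of the 9 members other than Cyp2e1, and right, Aldh1a7 counts per 100 Aldh1a1 counts, with points for libraries, bars for the mean and error bars for the SD. The sums overlap between KO and WT, and the ratio lies lower in both male groups (13.3 to 19.2) than in both female groups (21.1 to 34.6).

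The male comparison of KO with WT called Cyp2e1 alone of the 10 members, where 0.0571% of all tested genes were called, 0.0286% higher and 0.0286% lower. The female comparison called 3 members, all lower (Cyp2e1, Adh7 and Aldh1a7), where 36.5% of all tested genes were called, 17.7% higher and 18.8% lower. The median log2 fold change of the 10 members was 0.07 in males, against -0.003 over all tested genes, and -0.33 in females, against 0.05 over all tested genes. Without female KO replicate 2 or without female WT replicate 2 the female count was 1, Cyp2e1. KO and WT males did not overlap in 4 members, with 2 higher and 2 lower in KO, where 9.62% of all genes did not overlap, 5.1% higher and 4.52% lower. KO and WT females did not overlap in 5 members, with 1 higher and 4 lower in KO, where 54.8% of all genes did not overlap, 27.6% higher and 27.1% lower.

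Among the alcohol dehydrogenases, Adh1 was at 1816, 1803 and 1775 CPM in KO males, against 1548, 1731 and 1551 CPM in WT males. Every KO male was above every WT male by a small margin, and the difference was not called (0.16 ± 0.15, adjusted p = 1). KO females had 1623, 1653 and 1839 CPM, against 2114, 1801 and 1856 CPM in WT females, which overlapped (-0.17 ± 0.15, 95% interval -0.50 to 0.15, adjusted p = 0.369). As the mean of both sexes the Adh1 difference was -0.01 log2 units, with a 95% interval of -0.24 to 0.22.

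Adh5, the class III enzyme that removes formaldehyde bound to glutathione, was at 429, 461 and 396 CPM in KO males, against 454, 445 and 469 CPM in WT males (-0.09 ± 0.15, adjusted p = 1). KO females had 325, 328 and 383 CPM, against 461, 434 and 402 CPM in WT females. The 3 KO females were below the 3 WT females, and the difference did not pass (-0.32 ± 0.15, adjusted p = 0.102), though it did with DESeq2 (-0.35, 0.0226) and with the length trend removed (-0.55, 0.0249). Adh4, the class II enzyme, which also acts on retinol and larger alcohols, had 140, 151 and 95.7 CPM in KO males, against 128, 84.4 and 126 CPM in WT males. It had 36.3, 72.5 and 65.3 CPM in KO females, against 60.7, 87.6 and 61.5 CPM in WT females. The genotypes overlapped in both sexes, at 0.19 ± 0.28 in males and -0.27 ± 0.28 in females (adjusted p = 1 and 0.458).

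Adh7, the class IV enzyme, best known as the retinol-active alcohol dehydrogenase of stomach and other epithelia, was the least abundant member. KO females had 14.1, 15.1 and 14.8 CPM, against 24.5, 30.5 and 36.7 CPM in WT females. The KO females were tightly grouped and all lower, at 48.1% of the WT mean (-1.05 ± 0.24, edgeR adjusted p = 0.014). KO males had 25.3, 43.8 and 26.6 CPM, against 20.5, 22.6 and 29.6 CPM in WT males, which overlapped (0.39 ± 0.24, adjusted p = 1). The effect in males minus that in females was 1.45 ± 0.34 (95% interval 0.73 to 2.17, unadjusted p = 0.000798). It did not pass over all genes (adjusted p = 0.204), and the contrast called 0 genes in edgeR (0% of those tested), with 3145 genes at an unadjusted p under 0.05. DESeq2 called 218 genes in it and gave Adh7 no adjusted p. Without a filter on low counts edgeR called Adh7 in it (1.43, adjusted p = 0.00389).

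The female call of Adh7 was lost without female KO replicate 2 (-1.08, adjusted p = 0.061) and without female WT replicate 2 (-1.06, adjusted p = 0.0554). Once library-specific dependence on gene length was modelled, the fold change was -0.40 (adjusted p = 0.691), while with the length trend removed from each library it stayed called (-1.09, adjusted p = 0.0141). The lncRNA gene 0610031O16Rik overlaps Adh7 on the other strand and was called in the same comparison. It averaged 42.5 ± 12.4 CPM in KO males and 36.7 ± 6.97 in WT males (0.21, adjusted p = 1), and 18.1 ± 3.90 in KO females and 35.8 ± 7.29 in WT females (-0.98, adjusted p = 0.0153). No source used here gives the strand setting of the counting, so reads of Adh7 and 0610031O16Rik cannot be told apart. The 6 stomach epithelium markers (Gkn1, Gkn2, Tff1, Tff2, Muc5ac and Pgc) summed to 2 to 19 raw counts per library, and none passed the filter on low counts.

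**Figure D4:**
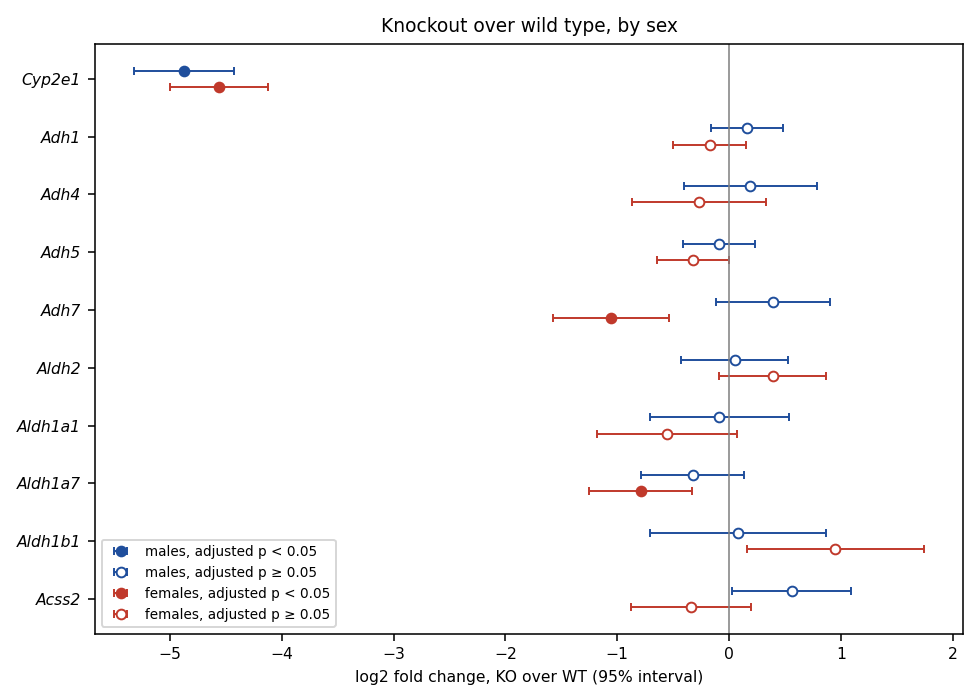
Log2 fold change of KO over WT (horizontal axis) with its 95% interval for each member, males above females, with filled points at an adjusted p under 0.05. Cyp2e1 lies at -4.87 and -4.56, Adh7 and Aldh1a7 are filled in females (-1.05 and -0.79), and the other points are open.

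Of the aldehyde dehydrogenases, Aldh2 did not pass in either sex. KO males had 2255, 1614 and 2623 CPM, against 1920, 2544 and 1805 CPM in WT males (0.05 ± 0.22, 95% interval -0.43 to 0.53, adjusted p = 1). KO females had 1879, 2362 and 2474 CPM, against 1974, 1750 and 1399 CPM in WT females (0.39 ± 0.22, adjusted p = 0.179). The groups overlapped in both sexes.

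Aldh1a1, the cytosolic enzyme that oxidises retinal as well as acetaldehyde, had 1486, 1340 and 1079 CPM in KO males, against 1351, 1197 and 1595 CPM in WT males (-0.09 ± 0.29, adjusted p = 1). KO females had 319, 744 and 673 CPM, against 954, 986 and 610 CPM in WT females, with replicate 1 of the KO females far below the others (-0.56 ± 0.29, adjusted p = 0.143). Its rodent copy Aldh1a7 had 198, 204 and 176 CPM in KO males, against 259, 205 and 259 CPM in WT males. All KO males were lower, the highest at 204 CPM against 205 CPM in the lowest WT male, and the difference was not called (-0.32 ± 0.21, adjusted p = 1). KO females had 110, 157 and 162 CPM of Aldh1a7, against 300, 262 and 180 CPM in WT females, again all lower (-0.79 ± 0.22, adjusted p = 0.0173).

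The female call of Aldh1a7 was lost without KO replicate 1 (-0.63, adjusted p = 0.0504), KO replicate 2 (-0.86, 0.0612), WT replicate 1 (-0.63, 0.0574) or WT replicate 2 (-0.75, 0.065). It also ended with the length dependence modelled (-0.75, adjusted p = 0.471), with the length trend removed from each library (-0.46, 0.121) and with the counts of Aldh1a1 and Aldh1a7 summed to 1 row (-0.61, 0.0935). As the mean of both sexes, Aldh1a7 was lower in KO (-0.56 ± 0.15, adjusted p = 0.038), 1 of 2 members called there with Cyp2e1, where 15.1% of all genes were called, 7.78% higher and 7.29% lower. That call ended in 9 of 12 fits with 1 library left out (adjusted p 0.0565 to 0.0962 in those 9), under the summed counts (-0.36, adjusted p = 0.172), with the length dependence modelled (-0.53, 0.274) and with the length trend removed (-0.37, 0.106).

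Aldh1b1, a mitochondrial enzyme of acetaldehyde and retinal oxidation, was higher in every KO female than in every WT female, at 200, 172 and 183 CPM, against 108, 101 and 77.9 CPM. This difference just missed the threshold (0.95 ± 0.37, adjusted p = 0.0571). It passed with DESeq2 (0.93, adjusted p = 0.0386), with no filter on low counts (0.95, 0.00117), with the length trend removed (1.19, 0.0393) and without any 1 of KO male replicates 2 and 3 or WT male replicates 2 and 3. In 8 of 12 fits with 1 library left out it did not pass (adjusted p up to 0.163), nor did it with the length dependence modelled. KO males had 95.3, 61.3 and 162 CPM, against 77.1, 163 and 60.8 CPM in WT males, a spread of the same kind in both groups (0.08 ± 0.36, adjusted p = 1). In males the highest Aldh1b1 was in the library with the most positive length slope of each group, KO replicate 3 and WT replicate 2. The same held in WT females (replicate 1, 108 CPM, slope -0.14). In KO females the highest was in the library with the lowest slope (replicate 1, 200 CPM, slope 0.08). The part of gene length in the Aldh1b1 values was not tested.

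Acss2, the cytosolic and nuclear enzyme that makes acetyl-CoA from acetate and a target of the sterol regulator SREBP, had 223, 173 and 220 CPM in KO males, against 137, 146 and 135 CPM in WT males. All 3 KO males were higher, and the difference did not pass over all genes (0.56 ± 0.25, adjusted p = 0.987). KO females had 216, 143 and 190 CPM, against 336, 192 and 168 CPM in WT females, where WT replicate 1 stood apart (-0.34 ± 0.25, adjusted p = 0.288). With the length trend removed, Acss2 passed as lower in KO females (-0.81, adjusted p = 0.0313). The effect in males minus that in females was 0.90 ± 0.35 (adjusted p = 0.204). Gss, which overlaps Acss2 on the other strand, held 1279 to 2396 counts per library and was called in neither sex (-0.10 in males and -0.36 in females, adjusted p = 1 and 0.118).

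In WT livers Cyp2e1 was 1.66-fold higher in males, at 10374 to 11480 CPM, than in females, at 6213 to 7076 CPM (log2 fold change 0.73 ± 0.18, adjusted p = 0.0313). It was the 1 member called among the 10, where 4.49% of all genes were called, 2.1% higher and 2.39% lower. The call rested on a narrow margin. It ended without WT male replicate 1 (0.74, adjusted p = 0.0916) or 2 (0.69, 0.1), without WT female replicate 1 (0.70, 0.102), 2 (0.71, 0.118) or 3 (0.79, 0.0635), and without KO female replicate 3 (0.73, 0.0542) or KO male replicate 1 (0.74, 0.0524). The value stayed at 0.69 to 0.79 in all 12 such fits. In KO livers the males, at 318 to 403 CPM, overlapped the females, at 230 to 323 CPM (0.42 ± 0.18, adjusted p = 0.184).

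In KO livers 3 members were called, all higher in males, where 5.4% of all genes were called, 2.95% higher and 2.45% lower. These were Adh4 (1.15 ± 0.28, adjusted p = 0.0296), Adh7 (1.12 ± 0.24, adjusted p = 0.014) and Aldh1a1 (1.17 ± 0.29, adjusted p = 0.0333). For each, every KO male was above every KO female. Adh4 had 95.7 to 151 CPM in KO males and 36.3 to 72.5 in KO females, and Aldh1a1 had 1079 to 1486 CPM in KO males and 319 to 744 in KO females. Male and female KO livers did not overlap in 6 members, with 5 higher and 1 lower in males, where 28.1% of all genes did not overlap, 14% higher and 14.2% lower. Male and female WT livers did not overlap in 4 members, with 2 higher and 2 lower in males, where 26.9% of all genes did not overlap, 13.4% higher and 13.5% lower. In WT livers Adh4 (0.69 ± 0.28, adjusted p = 0.175) and Aldh1a1 (0.70 ± 0.29, adjusted p = 0.183) had values in the same direction that did not pass, and Adh7 had a value in the other (-0.33 ± 0.24, adjusted p = 0.404). The sex effect in KO minus that in WT is the same contrast as the knockout effect in males minus that in females. It was 0.46 ± 0.39 for Adh4, 0.47 ± 0.41 for Aldh1a1 and 1.45 ± 0.34 for Adh7. None of the 3 was called in it in the main edgeR model (adjusted p = 0.463, 0.473 and 0.204). The lncRNA 0610031O16Rik across from Adh7 was higher in KO males too (1.23, adjusted p = 0.0114). With no filter on low counts, Adh4 (0.72), Aldh1a1 (0.73) and Acss2 (-0.71) were called by sex in WT.

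These 3 sex calls depended on single libraries. Adh4 was lost without KO female replicate 1 (0.90, adjusted p = 0.104) or 3 (1.25, 0.0666) and without KO male replicate 1 (1.09, 0.0902) or 2 (1.02, 0.084), and with the length dependence modelled (0.98, 0.0565) or the length trend removed (0.87, 0.0799). Adh7 was lost without KO female replicate 1 (1.09, 0.0633), 2 (1.14, 0.0518) or 3 (1.13, 0.0553). Aldh1a1 was lost without KO female replicate 1 (0.88, 0.0838) or 3 (1.30, 0.0657), KO male replicate 1 (1.07, 0.104) or 2 (1.15, 0.0699) or WT male replicate 1 (1.18, 0.0542). Each kept its direction in these fits.

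**Figure D5:**
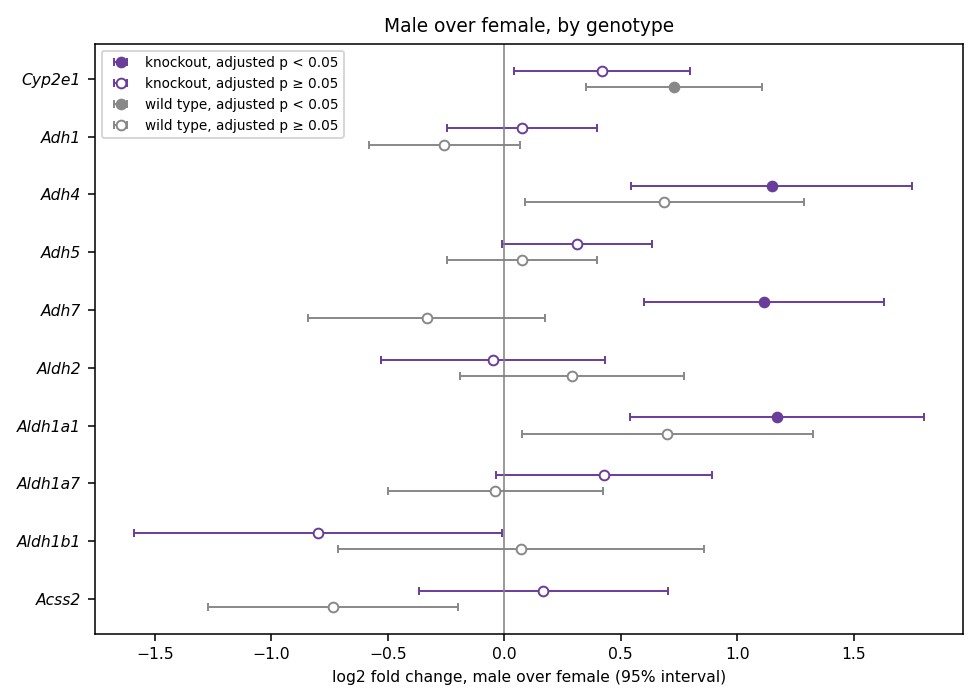
Log2 fold change of male over female (horizontal axis) with its 95% interval for each member, KO above WT, with filled points at an adjusted p under 0.05. Filled points are Cyp2e1 in WT (0.73) and Adh4, Adh7 and Aldh1a1 in KO (1.15, 1.12 and 1.17).

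Aldh1a1 and its neighbour Aldh1a7 were also set against each other within each library. Aldh1a7 was at 205 to 259 CPM in WT males and 180 to 300 CPM in WT females (-0.04 ± 0.21, adjusted p = 0.928), while Aldh1a1 was at 1197 to 1595 CPM in WT males and 610 to 986 CPM in WT females. The number of Aldh1a7 counts per 100 Aldh1a1 counts was 14.9 ± 1.51 in KO males and 26.6 ± 7.09 in KO females, and 17.5 ± 1.51 in WT males and 29.2 ± 2.42 in WT females (SD, n = 3). No male library overlapped a female library of its genotype in this ratio. KO and WT overlapped in it within each sex.

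No other member was called by sex. Acss2 was lower in every WT male than in every WT female and did not pass (-0.73 ± 0.25, adjusted p = 0.119). Aldh1b1 in KO livers had every male lower (61.3 to 162 CPM in males and 172 to 200 CPM in females) and did not pass either (-0.80 ± 0.37, adjusted p = 0.217), except with no filter on low counts (-0.78, 0.0273). Adh1 was at 0.08 ± 0.15 in KO and -0.26 ± 0.15 in WT livers (adjusted p = 0.779 and 0.324). Aldh2 was at -0.05 ± 0.22 in KO and 0.29 ± 0.22 in WT livers (adjusted p = 0.91 and 0.441), and Adh5 at 0.31 ± 0.15 and 0.08 ± 0.15 (adjusted p = 0.234 and 0.777).

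A list of 25 other genes of alcohol, aldehyde and acetate metabolism was read beside the members, 18 of which could be tested. In males 0 of the 18 were called for KO against WT by edgeR, 0 had an unadjusted p under 0.05, and DESeq2 called 0. In females 1 was higher and 2 were lower, where 36.5% of all genes were called. Aldh5a1, the succinate semialdehyde dehydrogenase, was at 50.9 ± 10.9 CPM in KO females and 26.8 ± 3.41 in WT females (0.92 ± 0.26, adjusted p = 0.0185). Akr1a1, an aldehyde reductase, was at 306 ± 12.9 CPM in KO females and 464 ± 79.4 in WT females (-0.60 ± 0.18, adjusted p = 0.023). Cyb5a, the cytochrome b5 that passes electrons to Cyp2e1 and other P450s, was at 983 ± 96.7 CPM in KO females and 1610 ± 218 in WT females (-0.71 ± 0.21, adjusted p = 0.0232). Without female KO replicate 2 or without female WT replicate 2 none of the 3 was called, and without any other female library 1 or 2 of the 3 stayed called. With the length dependence modelled none of the 3 was called, with Aldh5a1 at the other sign (-0.038, adjusted p = 0.98), Akr1a1 at -0.25 (0.767) and Cyb5a at -0.030 (0.985). In females that fit tells genotype from slope poorly, as the slopes of KO and WT did not overlap. With no filter on low counts the Akr1a1 call also ended (-0.60, 0.0521). As the mean of both sexes 0 of the 18 were higher and 1 was lower, Akr1a1 (-0.41 ± 0.13, adjusted p = 0.047), where 15.1% of all genes were called. That call ended in 9 of 12 fits with 1 library left out (adjusted p up to 0.118, without KO male replicate 3, at -0.38), with no filter on low counts (-0.41, 0.0722), with the length dependence modelled (-0.21, 0.576) and with the length trend removed (-0.33, 0.0676). For the difference between the sexes 0 of the 18 were called in edgeR, with 2 at an unadjusted p under 0.05, and DESeq2 called 1.

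Between WT males and WT females 1 gene of that list was higher in males and 2 were lower, where 4.49% of all genes were called. Aldh3a2, the fatty aldehyde dehydrogenase, was at 123 ± 3.30 CPM in WT males and 336 ± 23.5 in WT females (-1.45 ± 0.19, adjusted p = 0.000362), and it stayed called in all 12 fits with 1 library left out. It was also the 1 gene of the list called by sex in KO, where 5.4% of all genes were called, at 136 ± 11.8 CPM in KO males and 311 ± 77.2 in KO females (-1.19 ± 0.19, adjusted p = 0.00173), and it stayed called there in those 12 fits too. Acss3, a mitochondrial propionyl-CoA synthetase, was at 2.92 ± 0.473 CPM in WT males and 12.4 ± 7.67 in WT females (-2.08 ± 0.52, adjusted p = 0.0385). Its call ended in 7 of those 12 fits (adjusted p up to 0.19, without WT female replicate 2, at -1.48). Catalase (Cat), the peroxisomal side route of ethanol oxidation, was at 3348 ± 125 CPM in WT males and 1877 ± 151 in WT females (0.83 ± 0.22). Its adjusted p of 0.05 lay just under the threshold and was lost in 10 of the 12 fits (up to 0.165, without WT female replicate 3). The Cat call also ended with RLE in place of TMM scaling (0.83, 0.0517) and with the length dependence modelled (0.61, 0.0906).

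Cyp2e1 is a pericentral gene. Of 11 other pericentral markers, 0 were called in KO males and in KO females 3 were called higher (Axin2, Lgr5 and Tbx3) and 2 lower (Rhbg and Lhpp), where 36.5% of all genes were called in females. Glul, glutamine synthetase, was at 0.13 ± 0.23 in males and 0.07 ± 0.23 in females, and Cyp1a2 at 0.08 ± 0.26 and 0.29 ± 0.26, none past the threshold. Their summed level was 6185 to 8589 CPM in KO males and 6151 to 7176 in WT males, and 3762 to 4860 CPM in KO females and 4066 to 5290 in WT females. The sum was thus higher in males than in females of either genotype without overlap, as Cyp2e1 was in WT livers, and its part in that Cyp2e1 difference was not tested. The sum weighs abundant markers most. Cyp2c29 averaged 2422 CPM in WT males and 1353 in WT females, Cyp1a2 1540 and 703, and Glul 914 and 960. By fold change, 6 of the 11 markers were higher and 5 lower in males, in WT and in KO livers alike. Of 9 periportal markers (without Aldh1b1) 0 were called in males and 3 higher and 1 lower in females, beside that same 36.5%.

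Markers of other cell types were read in the female comparison, in which Adh7 and Aldh1a7 were called. Their counts of calls stand beside 36.5% of all genes called there, 17.7% higher and 18.8% lower. Of 7 Kupffer cell markers 3 were higher and 0 lower, with a sum of 166 to 195 CPM in KO females and 116 to 172 in WT females. Of 7 sinusoidal endothelial markers 3 were higher and 0 lower, with 164 to 231 CPM in KO females and 139 to 166 in WT females. Of 7 stellate cell markers 3 were higher and 1 lower, with 442 to 518 CPM in KO females and 339 to 414 in WT females. These are the mesenchymal, endothelial and resident macrophage cells that line the sinusoids. Of 5 tested cholangiocyte markers 1 was higher and 2 lower, with 22.3 to 34.0 CPM in KO females and 42.2 to 49.9 in WT females. Of 4 tested lymphocyte markers 2 were higher, with 13.1 to 33.7 CPM in KO females and 9.07 to 13.8 in WT females. Of 5 erythroid markers 0 were called, with 235 to 597 CPM in KO females and 441 to 1042 in WT females. No marker of these 6 lists was at 0 counts in all libraries of a female group. Their part in the members' differences was not tested. In males none of these markers was called for KO against WT.

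The genes whose pattern over the 12 libraries was nearest to a member were found by the root mean square difference of centred log2 CPM. For Cyp2e1 the nearest was the lncRNA Gm10503 on chromosome 17 (0.62 log2 units), which was at 0 counts in all 6 KO libraries, and the next were Atp8b5 (1.55) and Noct (1.68). For Adh1 they were Rexo4 (0.07), Trap1 (0.10) and Lrpap1 (0.10), and for Aldh2 they were Aco1 (0.07), Ctnnb1 (0.08) and Clpb (0.08). Among the members themselves, Adh1 and Adh5 were nearest to each other (0.19), then Adh4 and Aldh1a1 (0.24). Genes that vary little over the libraries come out near each other by this measure, whether or not they move together.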

How the data were processed

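The authors deposited 1 table of whole read counts per gene, unnormalised, with the length of each gene. Per the submitters' processing notes, HISAT2 2.0.5, DESeq2 and the mm39 build were used; the counting program and its strand setting were not found in any label or header. Table columns were matched to libraries by the library number in the labels. Genes were filtered with filterByExpr and fitted with edgeR 4.0.16 (R 4.3.3): TMM scaling, 1 coefficient per group, quasi-likelihood F tests with 8 residual degrees of freedom, and Benjamini-Hochberg adjustment over 14003 genes. Standard errors are the fold change divided by the square root of F, and intervals are 95%. CPM per kb divides CPM by the deposited gene length. Log2 CPM for likeness used a prior count of 2. Replicate libraries differed beyond counting error (chi-square per degree of freedom 16.1 to 150.0), so none was a copy of another. Alternatives were DESeq2 1.42.0, RLE scaling, no filter, the replicate number as a block, 2 treatments of gene length (the length slope of each library as a covariate, or its smooth length trend removed), summing Aldh1a1 with Aldh1a7, and leaving out each library. The scripts were tested on simulated counts.

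All 10 members are named in the comparisons of KO with WT within each sex. In the other comparisons every member called is named, and the rest only in part. Other alcohol and aldehyde genes are named where called, up to 4 per comparison by adjusted p, and for Cyp2e1, Adh1 and Aldh2 the 3 nearest genes. The members and lists were chosen with earlier results of these data known. Pericentral markers and overlapping genes beyond that rule were named after their values were seen.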

Additional observations from a re-analysis of the deposited data

How the results depend on the processing

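The Cyp2e1 difference between KO and WT kept its direction and its call in both sexes under every alternative run, each left-out library included. RLE scaling moved no count of calls by over 1.5 times, and it ended the call of Cat for sex in WT (0.83, adjusted p = 0.0517). With DESeq2, 5 members were called in KO against WT females, and over all genes 34 in males (8 in edgeR), 3959 for the mean of both sexes (2111), 218 for the difference between sexes (0), 1226 for sex in WT (629) and 1395 for sex in KO (756). With no filter, 1 member was called for the difference between sexes and 4 for sex in WT, and over all genes 101 in males, 3900 for the mean, 1451 for the difference, 1700 for sex in WT and 1694 for sex in KO. With the length slope of each library as a covariate, 1 member was called in females and 1 for the mean, with 10 genes of all in females (5116 in the main model), 18 in males, 21 for the mean and 3 for the difference, 0 of the other alcohol and aldehyde genes in females, and Aldh5a1 in females turned to -0.038. With the length trend removed, 5 members were called in females and 1 for the mean. Of the other alcohol and aldehyde genes, 0 were called for the mean with the slope as a covariate or the trend removed (1 in the main model), 1 for the difference with no filter and 1 with DESeq2 (0), and for sex in KO 3 with no filter, 4 with DESeq2 and 2 with the slope (1). The cause of these changes was not tested.

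With the replicate block, 1 member was called for the mean, 0 for sex in WT and 1 for sex in KO; Cyp2e1 for sex in WT was 0.73 (adjusted p = 0.0784). The block also ended the calls of Adh4 (1.16, 0.0646) and Aldh1a1 (1.19, 0.077) for sex in KO, Aldh1a7 (-0.55, 0.0866) and Akr1a1 (-0.41, 0.0981) for the mean, Akr1a1 (-0.60, 0.0536) and Cyb5a (-0.71, 0.051) in females, and Acss3 (-1.98, 0.0969) and Cat (0.83, 0.118) for sex in WT. Over all genes the block called 3365 in females, 23 for the mean and 415 for sex in WT, and it called 1 other alcohol or aldehyde gene in females, 0 for the mean and 1 for sex in WT. The replicate numbers did not pair the libraries: of 18 same-numbered pairs 3 had a correlation of deviations over 0.1 (range -0.61 to 0.28), and 2 correlated best with their own number.

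Leaving out 1 library at a time gave 0.69 to 0.79 for Cyp2e1 by sex in WT. Members called ran from 1 to 4 in females, 1 to 4 for the mean, 0 to 1 for sex in WT and 0 to 3 for sex in KO. All genes called ran from 4 to 5993 in females, 5 to 18 in males, 18 to 5594 for the mean, 0 to 2 for the difference, 379 to 1124 for sex in WT and 440 to 953 for sex in KO. Other alcohol and aldehyde genes called ran from 0 to 3 in females, 0 to 3 for the mean, 1 to 3 for sex in WT and 1 to 2 for sex in KO. Every member had enough counts to be tested, and 3 libraries per group limit the precision.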
